A study of Rattus norvegicus with 36 samples.

Results

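A set of 5 genes of steroid dehydrogenation and reduction, Hsd17b2, Hsd11b1, Hsd17b10, Hsd17b4 and Srd5a1, was followed across the dose groups by taking every probe set whose symbol in the platform annotation was one of them. The set was chosen by its levels in the dose contrasts of these same arrays. Of the 5 genes, 4 had a probe set, 1 each, among 31042 tested probe sets, and Srd5a1 was not analysed here. Each array measured liver transcripts of male Harlan Sprague Dawley rats, which were 7 weeks old when dosing began and received hexabromocyclododecane (HBCD, a brominated flame retardant) in corn oil by oral gavage on 5 consecutive days. The left liver lobe was taken 1 day after the final gavage. The groups were HBCD at 641, 64.1, 6.41, 0.641 and 0.06 mg/kg and the corn oil vehicle, with 6 arrays each and 36 in all. All groups received corn oil at 5 ml/kg. Whether every array stands for a different animal is not stated in the labels, and the p-values therefore cover the spread among these arrays, part of which may be technical.

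Hydroxysteroid dehydrogenases switch steroid hormones between hydroxyl and keto forms, and steroid reductases saturate the A ring, so that together they set how much active hormone reaches its receptor in a tissue. Liver is a main site of this traffic in androgens, oestrogens and glucocorticoids, and several enzymes named for steroids work mainly on other substrates. Hsd17b2 encodes a microsomal enzyme that oxidises oestradiol and testosterone to their less active keto forms. Hsd11b1 encodes the enzyme of the endoplasmic reticulum that regenerates active glucocorticoid from its inert keto form. Hsd17b10 encodes a mitochondrial dehydrogenase that also acts in isoleucine breakdown and is a subunit of mitochondrial RNase P, and Hsd17b4 the peroxisomal multifunctional enzyme of fatty acid and bile acid side chain oxidation. Srd5a1 encodes a steroid reductase that converts testosterone to dihydrotestosterone.

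Of the 5 genes, 3 had a window before the transcription start in the RefSeq promoter table (build GRCr8), and Hsd17b2 and Hsd11b1 did not. The windows of the measured genes Hsd17b4 (chr18:45515177-45515426, plus strand) and Hsd17b10 (chrX:24568301-24568550, plus strand) are shown because these are the measured members the table holds. Each is the 250 bases before the start, read 5′ to 3′, and capitals mark a match on either strand to AGGTCA, the half-site of many nuclear receptors, to CCAAT, or to the GC box GGGCGG.
Hsd17b4: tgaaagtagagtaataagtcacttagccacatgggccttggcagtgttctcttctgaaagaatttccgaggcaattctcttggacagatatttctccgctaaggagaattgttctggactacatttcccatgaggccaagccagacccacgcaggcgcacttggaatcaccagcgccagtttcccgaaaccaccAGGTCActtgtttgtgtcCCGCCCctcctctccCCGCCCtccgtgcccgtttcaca
Hsd17b10: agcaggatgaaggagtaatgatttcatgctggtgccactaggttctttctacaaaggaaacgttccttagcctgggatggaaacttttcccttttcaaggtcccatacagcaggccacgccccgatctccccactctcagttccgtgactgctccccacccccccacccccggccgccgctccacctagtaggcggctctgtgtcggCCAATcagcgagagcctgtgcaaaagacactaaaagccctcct
The Hsd17b4 window holds 1 AGGTCA, which begins 56 bases before the start, and 2 GC boxes on the opposite strand. The Hsd17b10 window holds 1 CCAAT, which begins 43 bases before the start, and neither of the other motifs. Over 33469 windows of this length, 14.1% hold AGGTCA, 34.0% CCAAT and 30.5% GGGCGG. A match is a description of the letters and not of binding.

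Across the array set, the medians of the 36 arrays lay between 4.83 and 4.90 on the log2 scale, and the correlation of same-group arrays over probe sets was between 0.991 and 0.997. Hepatocyte markers (Alb, Apoa1, Ttr, Cps1 and Asgr1) were present, with a summed log2 level of 15.76 to 15.84 at 641 mg/kg and 15.82 to 15.87 in vehicle, and none of the 5 was called at any dose. The 8 measured macrophage markers stood below vehicle at every dose, none was called, and their summed log2 level was 10.93 to 11.87 at 64.1 mg/kg against 11.82 to 12.17 in vehicle. The 3 measured neutrophil markers also stood below vehicle at every dose without a call. At each dose at least 3 of 5 endothelial and 2 of 3 erythroid markers did so too. All doses share the vehicle arrays. The 5 lymphocyte markers (T and NK cells) had a summed log2 level of 6.57 to 6.83 at 641 mg/kg and 6.86 to 7.11 in vehicle, without overlap, and 4 of the 5 stood below vehicle. Also below vehicle at 641 mg/kg were 4 of the 5 hepatocyte and all 5 endothelial markers. Cd8a was called lower (0.633-fold, 0.509 to 0.788, limma adjusted p = 0.0176), and it was the only called marker of the 10 cell type lists. In vehicle the 5 lymphocyte markers averaged 3.53 (Cd3d) to 5.11 (Cd8a), near or under the array medians and thus possibly close to background. Cd8a averaged 4.45 at 641 mg/kg. The share of all probe sets lying below vehicle without overlap was not counted. For the macrophage markers, arrays were left out for Hsd17b2 and the list counts only. This also shrinks the group, so it cannot decide the markers' part in the results below. The part of the lymphocyte markers was not tested. In whole liver, fewer cells of a type and less RNA per cell cannot be told apart.

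All 4 genes were chosen with results of the dose contrasts known, so their levels and differences are a description and no p-value is given for them. Calls are those of limma at an adjusted p under 0.05 over all 31042 probe sets, stated for orientation. Of the 4 genes, 1 was called at 641 mg/kg, where 1.65% of all probe sets were, and the same gene at 64.1 mg/kg, where 0.0419% were. At 6.41, 0.641 and 0.06 mg/kg no probe set was called by limma, so the background there was 0%. At an unadjusted limma p under 0.05 there were 1282, 1477 and 1293. Each of these counts is under a share of 0.05 of the 31042 probe sets, which that threshold gives when nothing differs. The doses share the vehicle arrays, and the differences from vehicle are therefore not independent of each other.

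Hsd17b2, the hormone-inactivating oxidase, was the called gene, and its level stood above vehicle at every dose. In vehicle the lowest, median and highest arrays had log2 levels of 8.96, 9.17 and 9.31. In the lowest dose group, 0.06 mg/kg, they had 9.35, 9.47 and 9.68, and at 0.641 mg/kg 9.29, 9.55 and 9.70. The arrays at 0.06 mg/kg all lay above the highest vehicle array, and at 0.641 mg/kg 5 of 6 did. At 6.41 mg/kg the lowest, median and highest levels were 9.10, 9.45 and 9.77. At 64.1 mg/kg they were 9.26, 9.72 and 10.06, and at 641 mg/kg 9.63, 9.76 and 10.08. All 6 arrays at 641 mg/kg and 5 of 6 at both 64.1 and 6.41 mg/kg exceeded the highest vehicle array. At 0.641, 6.41 and 64.1 mg/kg the range of Hsd17b2 thus overlapped with vehicle. The share of probe sets with 5 of 6 arrays above was not counted, so only 0.06 and 641 mg/kg can be set beside the shares that follow. Over all probe sets, the share whose 6 treated arrays all lay above the 6 vehicle arrays was 0.0387% at 0.06 mg/kg, 0.0773% at 0.641 mg/kg, 0.0805% at 6.41 mg/kg, 0.184% at 64.1 mg/kg and 1.06% at 641 mg/kg. The SD of Hsd17b2 was 0.14 in vehicle, 0.12 at 0.06 mg/kg, 0.16 at 0.641 mg/kg, 0.23 at 6.41 mg/kg, 0.28 at 64.1 mg/kg and 0.19 at 641 mg/kg.

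**Figure D1:**
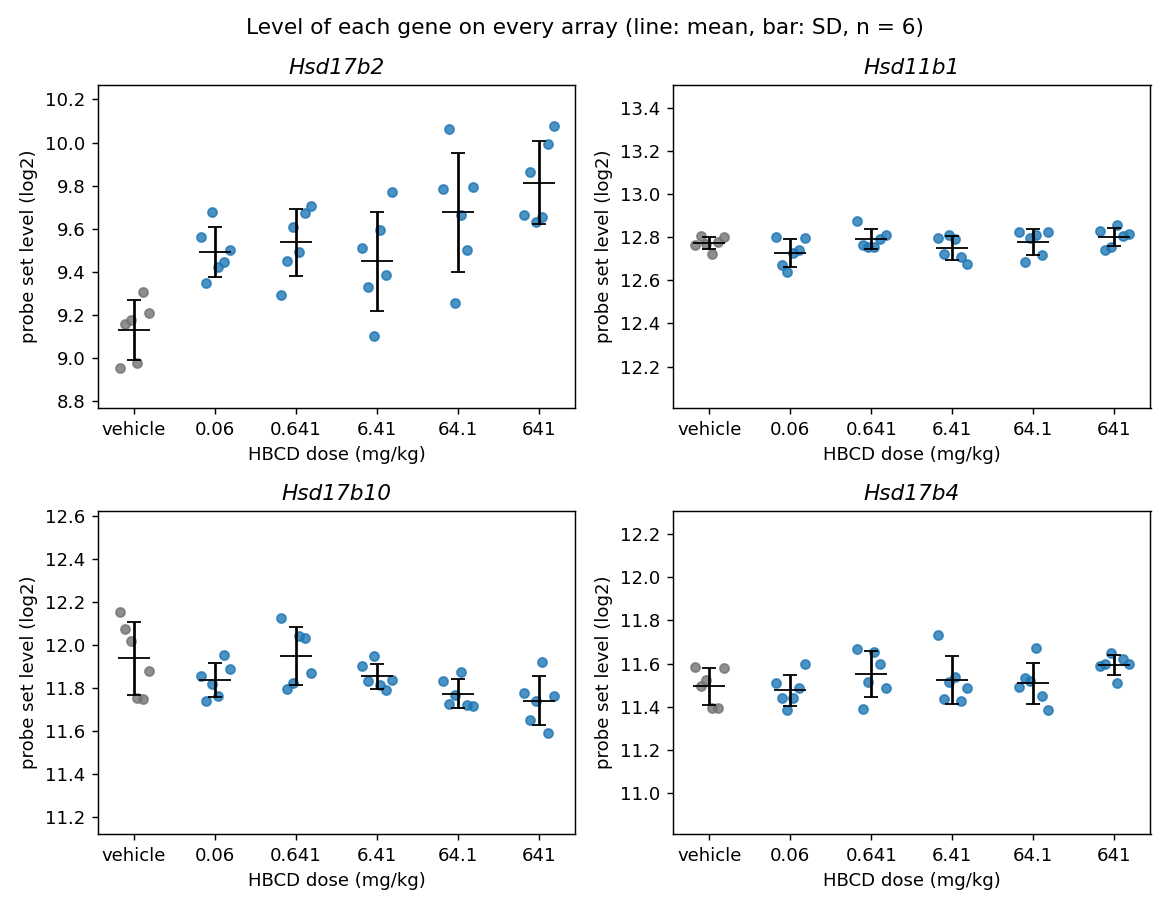
Log2 probe set level (vertical axes, all 1.5 units tall) of Hsd17b2, Hsd11b1, Hsd17b10 and Hsd17b4 on each of the 36 arrays, by HBCD dose in mg/kg with vehicle at the left; points are arrays, the line is the group mean and the bar the SD (n = 6). Hsd17b2 averages 9.81 at 641 mg/kg and 9.13 in vehicle, while the means of Hsd11b1 lie between 12.73 and 12.80.

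Hsd17b2 averaged 9.81 ± 0.19 at 641 mg/kg and 9.13 ± 0.14 in vehicle (SD, n = 6 each), a 1.61-fold difference (95% CI 1.38 to 1.87). At 64.1 mg/kg it averaged 9.68 ± 0.28, 1.46-fold above vehicle (1.26 to 1.70). The call at 64.1 mg/kg did not hold when any of vehicle replicates 1, 2, 3 and 4 or of 64.1 mg/kg replicates 1, 2, 4 and 6 was left out, nor in a fit of the 2 groups alone, although the log2 difference stayed between 0.469 and 0.630 over the 12 omissions. It also did not hold without the 3 arrays at 64.1 mg/kg lowest in macrophage markers, where the log2 difference was 0.562, against 0.546 with them. That omission also shrinks the group, and the part of this in the lost call was not tested. The call at 641 mg/kg held in all 12 omissions there, with log2 differences of 0.631 to 0.720.

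The lower doses gave Hsd17b2 levels close to each other. Its fold against vehicle was 1.29 (1.11 to 1.49) at 0.06 mg/kg. It was 1.32 (1.14 to 1.54) at 0.641 mg/kg, while the group given 6.41 mg/kg stood at 1.25-fold (1.07 to 1.45). None of these was called. On the log2 scale, the differences at 0.06, 0.641, 6.41 and 64.1 mg/kg were 53.0%, 59.4%, 46.6% and 79.9% of that at 641 mg/kg. The group means ran in the order vehicle, 6.41, 0.06, 0.641, 64.1 and 641 mg/kg, and each group overlapped its neighbour in that order. The difference between 641 and 64.1 mg/kg was 1.10-fold (0.947 to 1.28), and it was not called, where 0.242% of probe sets were called and 0.19% called higher.

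Over the 6 dose ranks, Hsd17b2 gained 0.11 on the log2 scale per dose step (SE 0.018), and it was called for that slope, as were 1.35% of probe sets in either direction and 0.902% upward. Among the 5 HBCD groups alone, the slope was 0.078 per unit of log10 dose (SE 0.024), and it was not called. Vehicle had the lowest of the 6 group means.

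**Figure D2:**
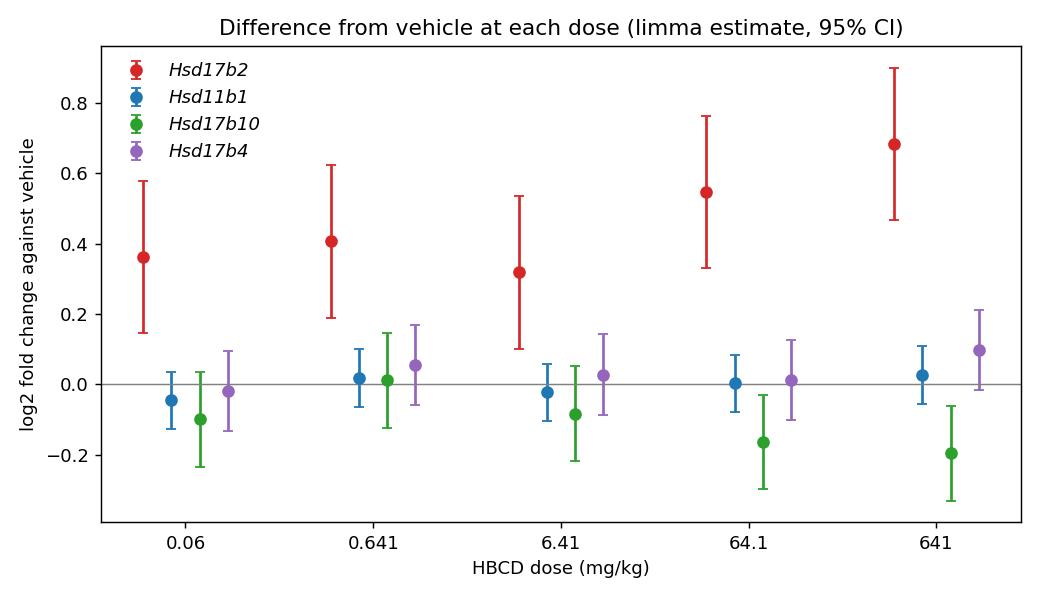
Log2 fold change against vehicle (vertical axis) of Hsd17b2, Hsd11b1, Hsd17b10 and Hsd17b4 at each HBCD dose in mg/kg (horizontal axis); points are limma estimates and bars 95% confidence intervals, and all doses share the 6 vehicle arrays. Hsd17b2 lies above 0 at every dose, from 0.32 at 6.41 mg/kg to 0.68 at 641 mg/kg, and the intervals of Hsd11b1 and Hsd17b4 include 0 throughout.

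Hsd11b1, the glucocorticoid-regenerating enzyme gene, kept nearly the same level in every group and had the smallest spread of the 4. Its lowest, median and highest log2 levels were 12.74, 12.81 and 12.85 at 641 mg/kg, against 12.72, 12.77 and 12.80 in vehicle. The ranges overlapped, and 4 of the 6 arrays at 641 mg/kg lay above the highest vehicle array. How many of all probe sets do so was not counted. The group means ran from 12.73 at 0.06 mg/kg to 12.80 at 641 mg/kg, with SDs from 0.029 to 0.065. The fold at 641 mg/kg was 1.02 (95% CI 0.963 to 1.08), so the interval holds no change beyond 1.08-fold upward or 0.963-fold downward. At the other doses the fold lay between 0.969 and 1.01.

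Hsd17b10, the mitochondrial dehydrogenase and RNase P subunit gene, stood lower at the upper doses without being called. Its lowest, median and highest log2 levels were 11.59, 11.75 and 11.92 at 641 mg/kg, and 11.72, 11.75 and 11.87 at 64.1 mg/kg. In vehicle they were 11.75, 11.95 and 12.15. All 6 arrays of both upper doses lay below the vehicle mean, a count not made over all probe sets, and the ranges overlapped with vehicle. The level at 641 mg/kg averaged 11.74 ± 0.11, against 11.94 ± 0.17 in vehicle (n = 6 each), which is 0.873-fold (95% CI 0.795 to 0.958). At 64.1 mg/kg it was 0.893-fold (0.813 to 0.980), at 6.41 mg/kg 0.944-fold, at 0.641 mg/kg 1.01-fold and at 0.06 mg/kg 0.933-fold. The slope over dose ranks was -0.036 per step (SE 0.011), and it was not called. Vehicle also had the widest SD of the 6 groups for this gene.

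Hsd17b4, the peroxisomal multifunctional enzyme gene, was not called at any dose. Its lowest, median and highest log2 levels were 11.51, 11.60 and 11.65 at 641 mg/kg, against 11.39, 11.51 and 11.59 in vehicle. The group at 641 mg/kg was the most uniform, with an SD of 0.046. In it 5 of the 6 arrays lay above the highest vehicle array, a count not made over all probe sets. The fold was 1.07 (95% CI 0.989 to 1.16) at 641 mg/kg and lay between 0.986 and 1.04 at the other doses.

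The genes also varied from array to array within a dose group, and this was examined after the group means were removed. These deviations do not enter the dose differences themselves, but their spread sets the SEs, intervals and calls. Over 36 arrays, the deviations of Hsd17b10 and Hsd17b4 correlated at r = 0.535 (permutation within groups, two-sided p = 0.00133, adjusted p = 0.00663 over 6 pairs) and rho = 0.555 (adjusted p = 0.0104). Without the 2 arrays farthest from the median of Hsd17b10, r was 0.611. Within groups the correlation was 0.517 to 0.935 in 5 groups and -0.742 at 641 mg/kg, each over 6 arrays. Hsd17b10 and Hsd11b1 correlated at r = 0.445 (permutation adjusted p = 0.00663) and rho = 0.455 (adjusted p = 0.0104), positive in all 6 groups, from 0.345 to 0.653, and r was 0.457 without the 2 farthest arrays.

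For Hsd17b2, no correlation with another member passed the adjustment. Its deviations correlated with those of Hsd17b10 at r = -0.270 (permutation adjusted p = 0.131; rho = -0.280, adjusted p = 0.165), of Hsd11b1 at r = -0.210 (adjusted p = 0.334; rho = -0.102, adjusted p = 0.703) and of Hsd17b4 at r = -0.030 (adjusted p = 0.879; rho = -0.046, adjusted p = 0.804). Hsd17b4 and Hsd11b1 correlated at r = 0.352 (adjusted p = 0.107; rho = 0.314, adjusted p = 0.155). All values of an array share its normalization, whose part in these correlations was not tested.

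Array measures of RNA quality moved with some of these deviations, an observation added after the data were seen. The 3′ minus 5′ difference of the Gapdh and actin control probe sets, which grows as RNA is degraded or copied short, was set against each member with group means removed (12 relations, including the array medians). Hsd17b10 ran against the Gapdh difference (r = -0.539, permutation adjusted p = 0.00456; rho = -0.546, adjusted p = 0.00696; r = -0.475 without the 2 farthest arrays), negative in 5 of 6 groups. It also ran against the actin difference (r = -0.498, permutation adjusted p = 0.0259; rho = -0.435, adjusted p = 0.0735; r = -0.415 without the 2 farthest arrays), negative in all 6 groups. Hsd17b4 ran against the Gapdh difference (r = -0.501, permutation adjusted p = 0.0259; rho = -0.462, adjusted p = 0.0563; r = -0.405 without the 2 farthest arrays), negative in 5 of 6 groups. The other 9 relations did not pass the adjustment, and for Hsd17b2 r was -0.053 with the Gapdh and -0.041 with the actin difference. With both differences regressed out, r was 0.390 between Hsd17b10 and Hsd17b4 and 0.359 between Hsd17b10 and Hsd11b1, against 0.535 and 0.445 before, and these lower values were not tested. Between dose groups the quality measures overlapped, with an actin difference of 1.06 to 1.23 at 641 mg/kg and 0.994 to 1.38 in vehicle.

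**Figure D3:**
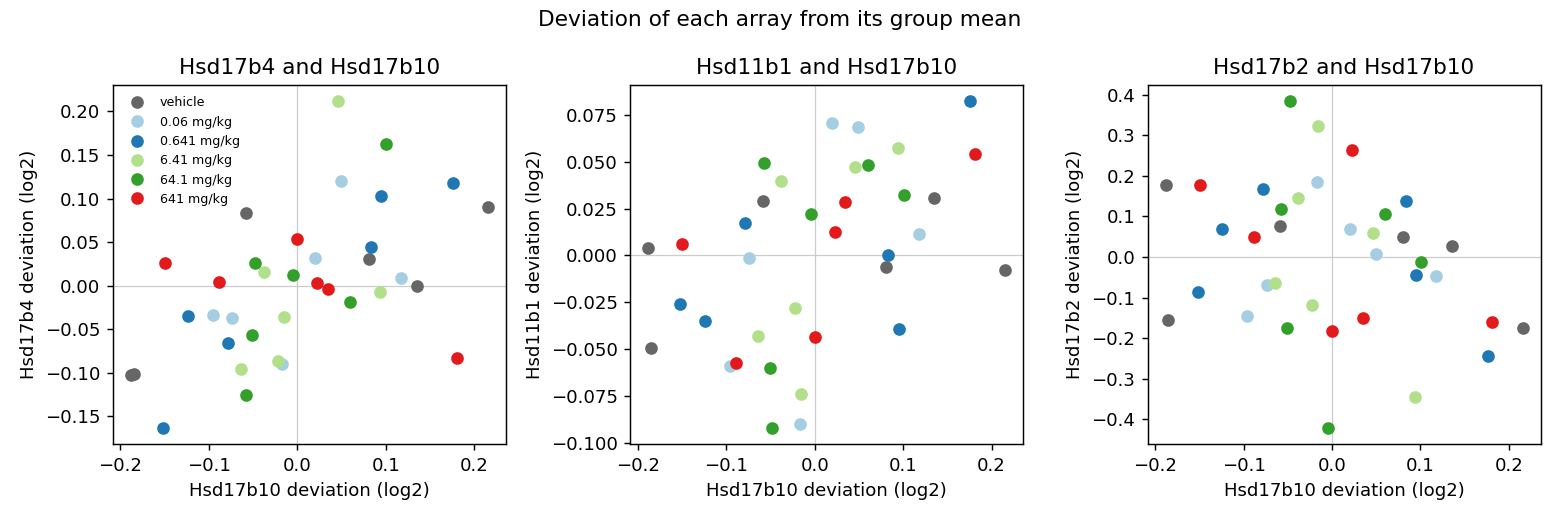
Deviation of each array from its dose group's mean (log2 units) for Hsd17b4, Hsd11b1 and Hsd17b2 (vertical axes) against Hsd17b10 (horizontal axes); each point is 1 of 36 arrays, coloured by dose. Hsd17b4 and Hsd11b1 rise with Hsd17b10 (r = 0.535 and 0.445), the red points at 641 mg/kg run the other way for Hsd17b4, and Hsd17b2 shows r = -0.270.

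The genes with the most similar pattern over the 36 arrays differed between members. For Hsd17b2 they were Cbr4 (r = 0.683), the chemokine gene Cxcl12 (0.683) and the epoxide hydrolase gene Ephx1 (0.679), among 14213 other genes of which 99% had r below 0.527. Cbr4 rose 1.23-fold and Ephx1 1.73-fold at 641 mg/kg. For Hsd17b10 they were Dexi (0.734), the sulfotransferase gene Sult1a1 (0.716) and Pttg1ip (0.711). Dexi and Sult1a1 were both called lower at 641 mg/kg, at 0.705-fold and 0.834-fold. For Hsd17b4 they were Kng2l1 (0.768), Tmem14c (0.752) and Psme4 (0.742), and for Hsd11b1 C15h8orf58 (0.613), Hibadh (0.606) and Rida (0.594). With group means removed, the nearest genes were Prl8a7 (0.651), Spaca6 (0.646) and Dixdc1 (0.618) for Hsd17b2, none of which was called at 641 mg/kg. Those of Hsd17b10 were then Zcchc24 (0.678), Pccb (0.662) and Enpep (0.659). Those of Hsd17b4 were Iqgap2 (0.793), Kng2l1 (0.761) and Cyp2j3 (0.748), and those of Hsd11b1 Prl2b1 (0.643), Fam78b (0.631) and C15h8orf58 (0.629).

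The genes around the members were described by 9 lists of steroid enzymes, receptors, responses and pathway partners, with 102 of 119 genes measured. At 641 mg/kg 13 were called higher (1.13% of all probe sets were) and 2 lower (0.512%), and at 64.1 mg/kg 4 higher and none lower (0.0419% and 0%). No list gene was called at the 3 lower doses. The lists were chosen with earlier results of these data known, so the counts and adjusted p-values of list genes are a description. The shares are also not a like comparison. A list gene was taken at its probe set with the highest mean, while the shares cover all tested probe sets, 9780 of them without a symbol. Whether the lists hold more calls than comparable genes was not tested. The count of 2 lower was 0 without any of 641 mg/kg replicates 1, 2, 4 and 5 or vehicle replicates 2 and 5, and 1 without any of vehicle replicates 1, 4 and 6. The count at 64.1 mg/kg was 2 without the 3 arrays lowest in macrophage markers, an omission that also leaves fewer arrays in that group.

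Hsd17b2, chosen with these contrasts known, was the only one of the measured 17-beta hydroxysteroid dehydrogenase genes to be called. The members Hsd17b4 and Hsd17b10 were not. Of the 8 such genes outside the set, none was called at any dose. Their median log2 fold change at 641 mg/kg was 0.0069, against -0.0073 over all probe sets. The one with the smallest p at 641 mg/kg was Hsd17b7, which also acts in cholesterol synthesis, at 1.16-fold (0.962 to 1.39; limma adjusted p = 0.584). Of 6 other genes for 11-beta and 3-beta dehydrogenases and their cofactor supply none was called either, with a median of -0.048. Hsd11b2, the glucocorticoid-inactivating counterpart of Hsd11b1, stood at 1.23-fold (1.01 to 1.49; adjusted p = 0.394), and H6pd, which supplies NADPH to the Hsd11b1 enzyme, at 0.969-fold (0.851 to 1.10; adjusted p = 0.912).

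The list of other steroid reductases and 3-alpha or 20-alpha dehydrogenases also held carbonyl reductase genes. Of its 11 measured genes, 2 rose at 641 mg/kg and none fell, with a median log2 fold change of 0.226. Akr1d1, the reductase that forms the bent A ring of bile acids and steroid metabolites, rose 1.35-fold (1.26 to 1.45; limma adjusted p = 1.91e-07), and 1 of its 2 probe sets was called. Its log2 levels were 12.39 to 12.46 at 641 mg/kg and 11.90 to 12.13 in vehicle, without overlap. Cbr4, a mitochondrial carbonyl reductase, rose 1.23-fold (1.15 to 1.33; adjusted p = 4.00e-04), and its levels, 8.30 to 8.45 at 641 mg/kg against 7.93 to 8.16 in vehicle, did not overlap either. Akr1d1 was also called higher at 641 than at 64.1 mg/kg (1.17-fold, adjusted p = 0.0340).

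Steroid hydroxylases and synthesis P450s rose in 4 of 16 cases at 641 mg/kg, and all 4 were Cyp3a genes. Cyp3a23-3a1 rose 2.45-fold, Cyp3a9 2.17-fold and Cyp3a18 1.99-fold, with limma adjusted p-values of 1.52e-14, 0.00326 and 2.26e-09. The fourth was Cyp3a2 (1.13-fold, adjusted p = 0.00823), named after its value was seen. The list's median was 0.030. The lowest value in the list was that of Cyp17a1, the hydroxylase and lyase of androgen synthesis, also named after its value was seen. Its 641 mg/kg level was 0.633 times that of vehicle (95% CI 0.466 to 0.860), which limma did not call (adjusted p = 0.140), with log2 levels of 6.49 to 7.04 at 641 mg/kg and 6.65 to 7.72 in vehicle. Cyp3a probe sets share near-identical sequence between genes, so their assignment to 1 gene is uncertain. Of 4 adrenal cortex markers, Cyp11b1 and Star were measured, neither was called at any dose, and their summed log2 level, 4.39 to 4.66 at 641 mg/kg and 4.33 to 4.53 in vehicle, lay below every array median.

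Steroid conjugation genes rose in 5 of 12 cases at 641 mg/kg, none fell, and the list's median was 0.230. Sult2a6, a hydroxysteroid sulfotransferase, rose 3.46-fold (2.31 to 5.19; limma adjusted p = 1.93e-04), with log2 levels of 10.44 to 11.16 at 641 mg/kg and 7.97 to 9.81 in vehicle. The glucuronosyltransferase genes Ugt2b7 and Ugt2b1 rose 2.17-fold (adjusted p = 1.25e-04) and 2.13-fold (adjusted p = 5.77e-10). The other members called were Ugt2a1 (1.97-fold) and Sult2a2 (1.25-fold), named after their values were seen. In vehicle, Ugt2b7 and Sult2a2 averaged 4.24 and 2.50, under the median of each array and thus possibly close to background, and the Ugt2b genes share near-identical sequence.

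**Figure D4:**
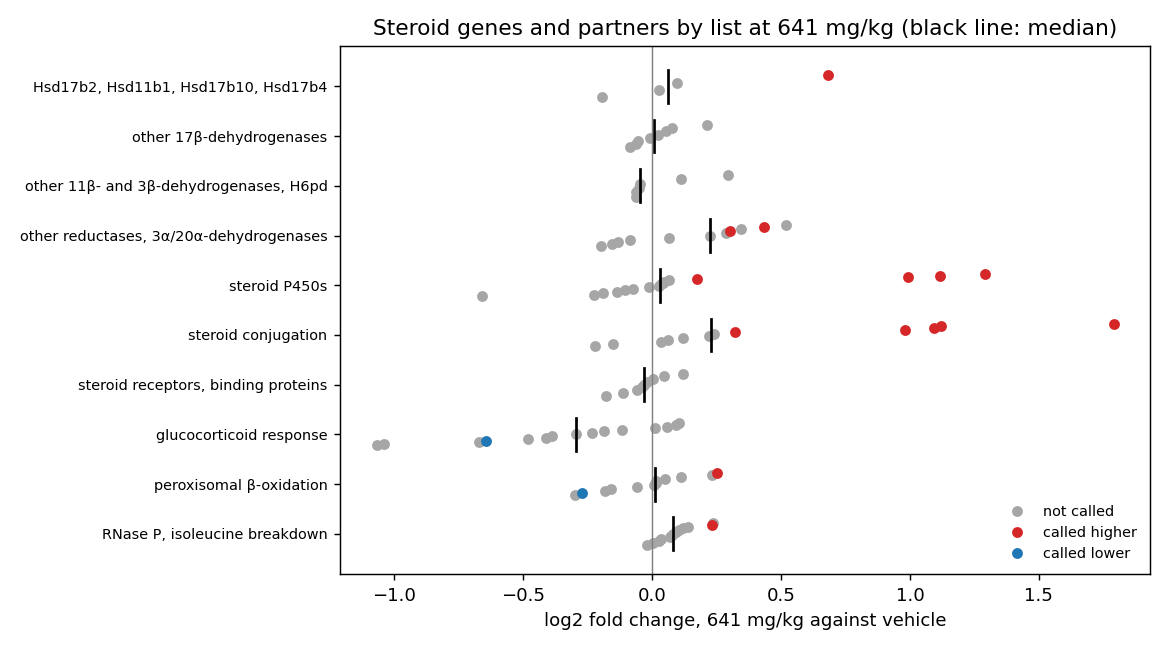
Log2 fold change at 641 mg/kg against vehicle (horizontal axis) of each measured gene in the 9 lists and of the 4 steroid dehydrogenases; points are genes by their brightest probe set, red called higher, blue called lower, grey not called, and black lines mark list medians. The P450 and conjugation lists hold 4 and 5 called genes, and the other 17-beta and 11-beta or 3-beta dehydrogenase lists hold none.

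The dose profile of Hsd17b2 can be set beside those of 8 of the enzyme genes called in the reductase, P450 and conjugation lists, the up to 3 per list with the largest fold at 641 mg/kg. In the 0.06 mg/kg group Hsd17b2 stood at a log2 difference of 0.36 (SE 0.11), and the 8 others lay between -0.035 (Cyp3a18, SE 0.091) and 0.24 (Sult2a6, SE 0.29). At 6.41 mg/kg Hsd17b2 stood at 0.32 (SE 0.11), below Sult2a6 (0.53, SE 0.29), close to Ugt2b1 (0.33, SE 0.092) and above the other 6, which lay between -0.057 (Ugt2b7) and 0.21 (Cyp3a23-3a1). At 641 mg/kg Hsd17b2, at 0.68, stood above Akr1d1 (0.44) and Cbr4 (0.30) and below the other 6, which lay between 0.99 (Cyp3a18) and 1.79 (Sult2a6). The difference between these genes' responses was not tested. Between 641 and 64.1 mg/kg, Cyp3a23-3a1 (1.34-fold, limma adjusted p = 0.00270) and Cyp3a18 (1.36-fold, adjusted p = 0.0184) were called higher.

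**Figure D5:**
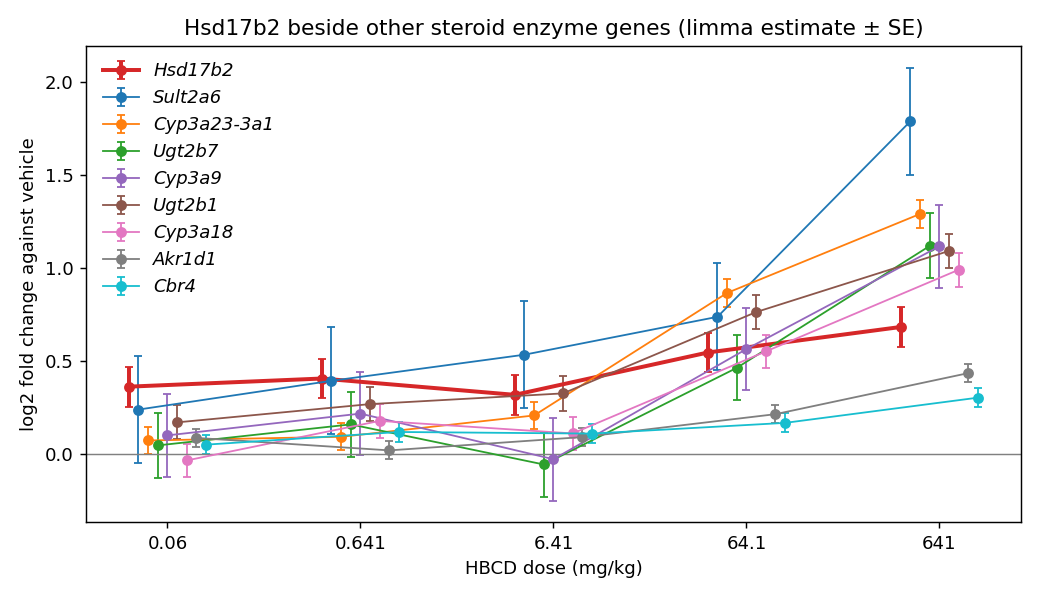
Log2 fold change against vehicle (vertical axis) at each HBCD dose in mg/kg (horizontal axis) for Hsd17b2, in thick red, and 8 other genes. The 8 were called higher at 641 mg/kg in the reductase, P450 and conjugation lists. Points are limma estimates and bars their SE, and all doses share the vehicle arrays. Hsd17b2 starts at 0.36 at 0.06 mg/kg and ends at 0.68, and Cyp3a23-3a1 starts at 0.073 and ends at 1.29.

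Steroid receptors, binding proteins and cofactors showed no call in 9 genes at any dose. The one with the smallest p at 641 mg/kg was Serpina6, the corticosteroid-binding globulin gene, at 0.884-fold (0.794 to 0.985; limma adjusted p = 0.332). Genes of the glucocorticoid response in liver had a median log2 fold change of -0.297 at 641 mg/kg, against -0.0073 over all probe sets. Of the 15, 11 lay below 0, a share not counted over all probe sets, and 1 was called. That gene was Klf9, a hormone-induced transcription factor, at 1.56-fold lower (1.24 to 1.97; adjusted p = 0.0327), and of its other 2 probe sets, neither called, 1 stood at 0.726-fold and 1 at 1.00-fold. Its log2 levels were 8.98 to 9.27 at 641 mg/kg and 9.50 to 10.09 in vehicle. The 4 genes of the list above 0 were Fkbp5, Tdo2, Mt1 and Mt2A. Their mean log2 levels at 641 mg/kg were 6.50, 12.47, 5.93 and 9.77, against 6.44, 12.46, 5.84 and 9.66 in vehicle. At 64.1 mg/kg the list's median was -0.146 and none of its genes was called. Hsd11b1, whose product feeds the glucocorticoid response, stood at 1.02-fold at 641 mg/kg. Any link between Hsd11b1 and the genes of this list was not tested.

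The partners of the other members were mostly not called. In peroxisomal beta oxidation, where the Hsd17b4 product acts, 1 of 12 genes rose and 1 fell at 641 mg/kg, with a median of 0.011. Pex7, a peroxisomal import receptor, rose 1.19-fold (1.09 to 1.30; limma adjusted p = 0.0321), and Amacr, the racemase for branched fatty acids and bile acid intermediates, was 1.21-fold lower (1.09 to 1.34; adjusted p = 0.0431). Among 13 partners of Hsd17b10 in mitochondrial RNA processing and isoleucine breakdown, 1 rose and none fell, with a median of 0.081 and 12 of 13 above 0. Acat1, the thiolase of the last step of isoleucine breakdown, rose 1.17-fold (1.10 to 1.25; adjusted p = 0.00326; 1 of 2 probe sets called). The RNase P partners Trmt10c and Prorp, named after their values were seen, stood at 1.00-fold (0.855 to 1.17) and 1.02-fold (0.917 to 1.13), against 0.873-fold for Hsd17b10.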

How the data were processed

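Liver RNA of 36 samples was measured on 3-prime expression arrays. The deposited values are log2 probe set levels, made by the authors with RMA; the submitters' processing notes name RMA and affy, with versions not given in the sources used here. That they are log2 follows from their range, 1.53 to 14.59. RMA normalizes between arrays, so differences are relative to the array, and no detection calls were used. From 31099 probe sets, 57 control probe sets were left out. Symbols came from the platform annotation and were brought up to date through the GRCr8 gene table by gene ID (20758 of 20826 probe sets with 1 symbol). A gene was represented by its probe set with the highest mean.

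The series design text names R/maanova at a false discovery rate of 5%. Here limma 3.58.1 (R 4.3.3) fitted group over all 36 arrays, two-sided, with Benjamini-Hochberg adjustment over 31042 probe sets in each contrast. Adjusted p-values come from limma unless named as permutation (100000 resamples within groups). The step was tested on simulated data. The members and lists were chosen with earlier results of these data known. Named genes were the members, up to 3 called genes per list and direction with the largest fold at 641 mg/kg (or the smallest p), and the 3 nearest patterns per member. Alternatives covered the replicate block, normalization, dim probe sets, variance models, array weights, adjustment, probe set choice, the 2 groups alone and single arrays left out. The number of arrays limits the precision.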

Additional observations from a re-analysis of the deposited data

Results flagged for a closer look

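In 54 groups of 6 arrays examined for 19 genes, 1 held an array set apart from the others by Dixon's test, where chance gives about 1 in 20. This was Hsd17b4 at 6.41 mg/kg, in which replicate 1 had a log2 level of 11.73 and the nearest array 11.54, a gap of 0.637 of the group's range and past the critical value. The group mean was 11.52 and the gene was not called at that dose.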

How the results depend on the processing

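Hsd17b2 was called at 641 mg/kg under all 9 alternative settings and all 12 omissions of an array, with log2 differences of 0.666 to 0.693 and 0.631 to 0.720. No other member was called at 641 or 64.1 mg/kg in any of them. The members were chosen with these contrasts known, so the repeated calls describe only the dependence on processing and are no further support. The number of members called at 64.1 mg/kg was 0 in the fit of the 2 groups alone and, in an alternative chosen after seeing the data, without the 3 arrays lowest in macrophage markers, where the list genes called higher numbered 2 against 4. That alternative also has fewer arrays at 64.1 mg/kg, whose part in the lower counts was not tested. Over the omissions the number of members called was 0 to 1 at 64.1 mg/kg and 1 throughout at 641 mg/kg. List genes called lower at 641 mg/kg numbered 1 after centring every array at its median, 0 with the 5 doses adjusted together and 1 with the mean of a gene's probe sets, against 2 (Klf9 and Amacr), and 3 both without dim probe sets and in the fit of the 2 groups alone, and 0 to 2 over the omissions; the cause was not tested. List genes called higher were 9 to 16 over the settings and 11 to 15 over the omissions at 641 mg/kg, and at 64.1 mg/kg 2 to 6 over the settings and 3 to 4 over the omissions. At 641 mg/kg Hsd17b10 lay between -0.200 and -0.173 over the settings and -0.234 and -0.153 over the omissions, Hsd17b4 between 0.0772 and 0.116 and Hsd11b1 between 0.0157 and 0.0380 over the omissions. Over the settings Hsd11b1 ran between -0.0044 and 0.036, so its sign is not settled.

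Same-numbered arrays of different groups deviated from their group means with a mean correlation of 0.018, over 0.1 in 14 of 90 pairs. Single pairs ran from -0.252 to 0.321, and the mean over arrays of other numbers was -0.0036. What the replicate number stands for is not stated in the labels. With the replicate block, Hsd17b2 at 641 mg/kg kept its log2 difference of 0.683 and its call, and the number of members called did not change.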
